A study of Rattus norvegicus with 45 samples.

Results

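The S100 genes encode small proteins that bind calcium. The genes described here are the 8 whose symbol the platform annotation gives for S100a8, S100a9, S100a4, S100a6, S100a10, S100a11, S100a1 and S100b. Each of them has 1 probe set, so 8 of the 31042 probe sets of the array (control probe sets left out) are described, and all 8 passed the filter on low signals that left 21729 probe sets for testing. They were measured over all 12 groups of the study, on 45 single-colour Affymetrix rat arrays, 30 of gastrocnemius and 15 of soleus.

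The animals were female SD rats given cerivastatin, a statin that lowers cholesterol, or methylcellulose vehicle for 14 days. Gastrocnemius, a mostly fast-twitch calf muscle, was taken at 0, 0.1, 0.5 and 1.0 mg/kg/day from rats kept without exercise and from rats run on a treadmill for 20 min a day at 20 m/min on 5 days a week. Soleus, a mostly slow-twitch calf muscle, was taken at 0 and 1.0 mg/kg/day, again with and without exercise. Each group had 4 arrays, except unexercised gastrocnemius at 1.0, exercised gastrocnemius at 0.5 and unexercised soleus at 1.0 mg/kg/day, which had 3. The design text calls the replicates biological. Whole muscle was used, so fewer cells of a type and less RNA per cell cannot be told apart. The labels give about 4 µg of input RNA for gastrocnemius and 3 µg for soleus, so input amount and muscle cannot be told apart either.

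S100 proteins work mostly as pairs: on binding calcium they open a surface with which they hold other proteins. S100a8 and S100a9 form calprotectin, the abundant cytosolic protein of neutrophils and of freshly recruited monocytes, which acts outside the cell as a damage signal at the receptors Tlr4 and Ager. S100a4 and S100a6 are found in fibroblasts, macrophages and other motile cells, S100a10 is the partner of annexin A2 at the plasma membrane, and S100a11 is a partner of annexin A1. S100a1 is the S100 protein of striated muscle, where it binds the calcium release channel, the calcium pump and titin. S100b is best known from Schwann cells and astrocytes and is also expressed in adipocytes.

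In the RefSeq gene table of the assembly GRCr8, 7 of the 8 genes lie on chromosome 2 in the order S100a1, S100a4, S100a6, S100a8, S100a9, S100a11 and S100a10, while S100b lies on chromosome 20. RefSeq promoters were found for 5 of the 8 genes. The 100 bases before the annotated start are shown for S100a9, S100a4 and S100a11, because these are the genes that rose in high-dose gastrocnemius and whose start in the promoter table matches the gene table. S100a6 and S100b, whose starts differ between the tables, are not shown. Capitals mark TATAAA (the TATA box) and GGGCGG (the GC box), and each sequence is written 5′ to 3′ on the strand of its gene.
S100a9, GRCr8 chr2:178490623-178490722, minus strand: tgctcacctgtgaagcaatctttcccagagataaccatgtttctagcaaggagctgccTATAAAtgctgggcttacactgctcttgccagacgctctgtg
S100a4, GRCr8 chr2:178388429-178388528, plus strand: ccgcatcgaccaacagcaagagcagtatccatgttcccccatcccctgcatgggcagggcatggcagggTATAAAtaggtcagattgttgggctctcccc
S100a11, GRCr8 chr2:181875032-181875131, plus strand: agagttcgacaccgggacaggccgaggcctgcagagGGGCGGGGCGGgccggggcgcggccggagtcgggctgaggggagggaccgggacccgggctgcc
S100a9 and S100a4 each hold 1 TATAAA, which 5.78% of 33469 RefSeq promoters hold in this window on either strand. S100a11 holds 2 overlapping copies of GGGCGG, found in 21.6% of promoters, and its window is 80% G and C against 49% for S100a9 and 57% for S100a4. Over the full 250 bases before the start, neither TGANTCA (AP-1, found in 6.34% of promoters) nor TTGCNNAA (C/EBP, found in 9.22%) occurred on either strand in these 3 genes. RefSeq also lists close copies of S100a11 and pseudogenes of S100a10 and S100a11, and whether the probes read them was not tested. These matches describe letters in a window and say nothing about which factor binds there.

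Values are MAS5 signals on a linear scale. A signal depends on its own probes, so levels were compared between arrays for a gene and not between genes. Differences are log2 fold changes of log2(signal + 12.4) with their standard errors (SE), tested with limma across all 21729 probe sets; a gene is said to rise or fall where the Benjamini-Hochberg adjusted p was under 0.05. The fold change understates the change of dim genes, which here means S100a8 and S100a9. Their vehicle signals, from 9.1 to 231.7, lie around the signal of 52.9 at which the filter was set.

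Some arrays stood apart from their groups in marker genes of other cell types. Replicate 3 of unexercised gastrocnemius at 0.1 mg/kg/day, replicate 1 of exercised soleus at 1.0 and replicate 3 of unexercised soleus vehicle ranked 1 to 3 of 45 in the mean of 9 adipocyte markers (12.18, 11.96 and 11.74 on the log2 scale), and ranked 1 to 3 in the mean of 11 Schwann cell and myelin markers as well. Replicate 3 of unexercised gastrocnemius at 1.0 mg/kg/day had a macrophage marker mean of 8.71, against 12.08 and 12.21 on the other arrays of its group, and an adipocyte marker mean of 10.37 against 8.17 and 8.45. Calls against vehicle in gastrocnemius at 1.0 mg/kg/day and some fold changes are given with and without these arrays. The 3 arrays highest in adipocyte markers are part of every correlation below, and no correlation is given without them.

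**Figure D1:**
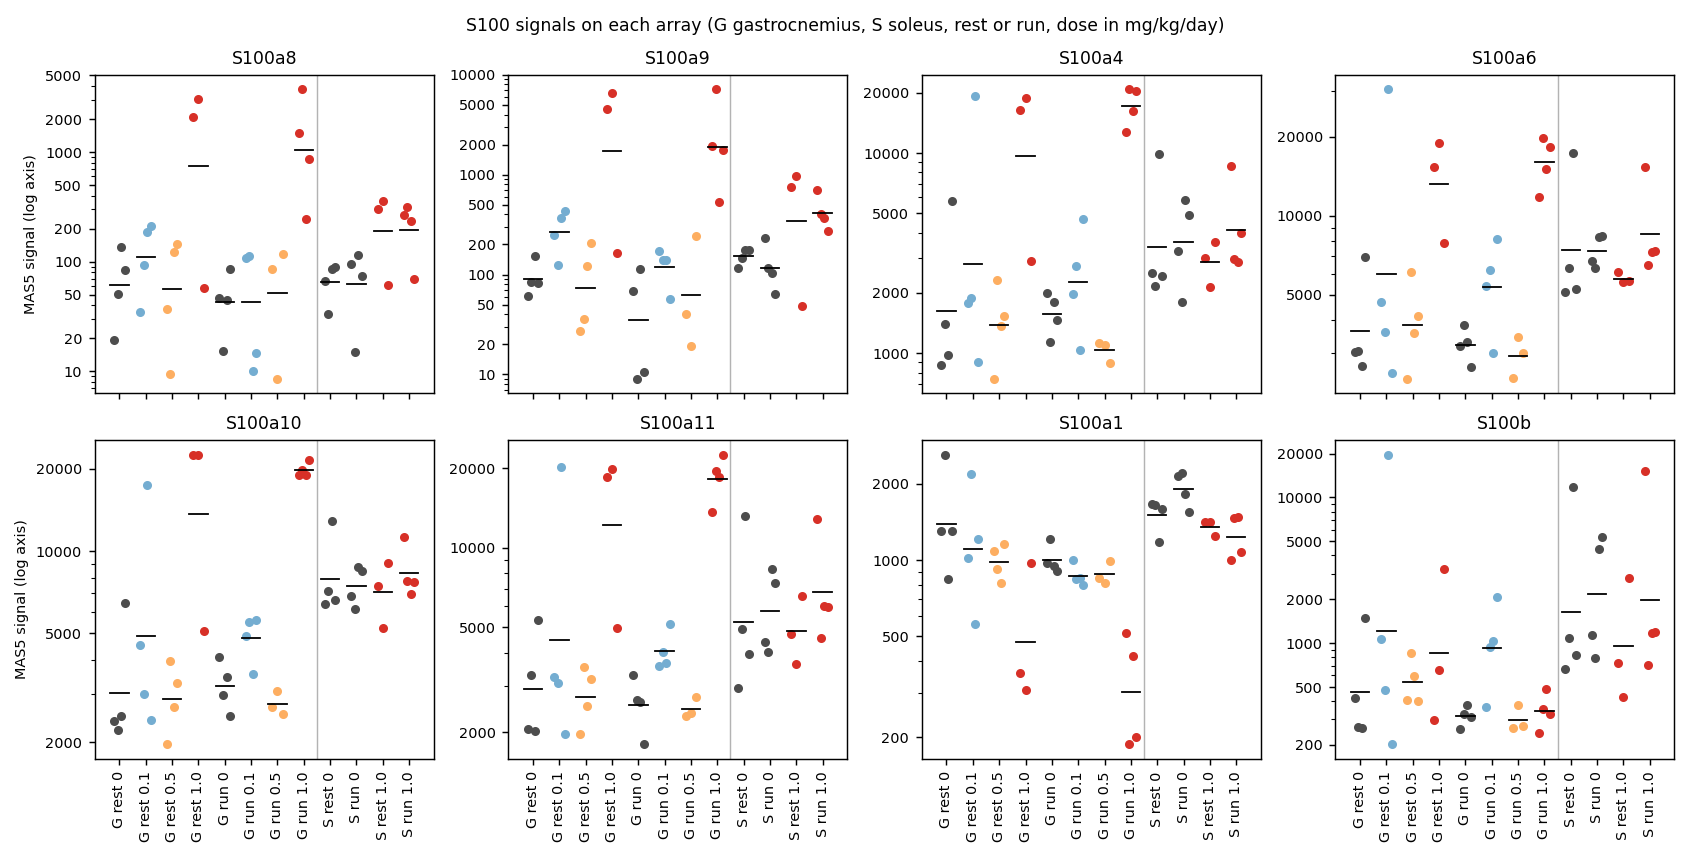
MAS5 signal (log axis) of each of the 8 S100 genes on each of the 45 arrays, by group; points are arrays coloured by dose, black lines are means taken on the log2 scale, G is gastrocnemius, S is soleus, rest is unexercised, run is exercised. S100a8, S100a9, S100a4, S100a6, S100a10 and S100a11 are high in gastrocnemius at 1.0 mg/kg/day except on 1 unexercised array, S100a1 is low on the same arrays, and S100b is high on single arrays of several groups.

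The design compares each dose of cerivastatin with vehicle. In exercised gastrocnemius at 1.0 mg/kg/day, 7 of the 8 S100 genes changed against vehicle: the myeloid S100a8 and S100a9 and the stromal and membrane-binding S100a4, S100a6, S100a10 and S100a11 rose, S100a1 fell, and S100b was not called. The change was widespread on the array, with 43.4% of all tested probe sets called, 23% higher and 20.4% lower. The median log2 fold change was 2.73 over the 8 genes and -0.01 over all probe sets tested. The 4 treated and 4 vehicle arrays did not overlap for the same number of genes, 7, against 42.3% of all probe sets.

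S100a8, the smaller calprotectin subunit, had signals of 1488.2, 3760.5, 243.2 and 866.7 on the 4 exercised gastrocnemius arrays at 1.0 mg/kg/day and of 46.6, 15.5, 44.8 and 85.8 with vehicle. The treated arrays all lay above the vehicle arrays, but they spread over 15-fold among themselves. The log2 fold change was 4.27 ± 0.97 (SE; limma adjusted p = 0.000968). S100a9, the larger calprotectin subunit, had signals of 1924.1, 7202.6, 534.8 and 1762.7 with the drug and of 68.6, 9.1, 114.1 and 10.7 with vehicle. Replicate 2 was the highest and replicate 3 the lowest of the treated arrays for both subunits. S100a9 rose by 5.34 ± 0.89 (SE) on the log2 scale, a 40.4-fold difference (limma adjusted p = 6.15e-05). This size depends on the offset, since 2 of the 4 vehicle signals are below it: the log2 fold change was 4.23 with an offset of 64 and 5.93 with an offset of 1.

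Markers of myeloid cells moved with the calprotectin genes. Of 16 macrophage markers on the array, 15 were tested and all 15 rose in this comparison (median log2 fold change 4.6), against 23% of all probe sets. They were led by the Fc receptor Fcgr2b at 6.29, the calcium-binding Aif1 at 5.22 and the adaptor Tyrobp at 5.07. The mean of the macrophage markers ranged from 11.77 to 13.21 on the treated arrays and from 8.03 to 8.31 with vehicle. Of the 15 neutrophil markers listed, 7 were on the array and 2 were bright enough to be tested. The receptor Csf3r rose by 2.5 ± 0.56 (SE; limma adjusted p = 0.000809), and Lcn2, a granule protein, gave 2.42 and was not called. The neutrophil granule genes Camp and Mmp8 did not pass the filter on low signals: Camp lay between 4.6 and 27.3 on the treated arrays and between 10.6 and 19.4 with vehicle, and Mmp8 between 32.7 and 58.6 against 83.9 to 153, all treated arrays below all vehicle arrays. The neutrophil marker mean ranged from 6.52 to 7.85 with the drug and from 5.48 to 6.06 with vehicle. It was taken over all 7 genes, of which only 2 passed the filter (log2 cutoff 6.03). This mean and its correlations therefore rest mostly on dim probe sets, unlike those of the macrophage markers. On the 4 treated arrays S100a9 had neither the order of the macrophage means nor that of the neutrophil means: replicate 4 had the highest macrophage mean, 13.21, with an S100a9 signal of 1762.7, and replicate 1 had the lowest neutrophil mean, 6.52, with 1924.1. Over the 45 arrays S100a9 correlated at 0.81 with the macrophage mean and at 0.63 with the neutrophil mean, and in deviations on the 38 arrays outside high-dose gastrocnemius at 0.17 and 0.27. The part of these cell types in the result was not tested.

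The receptors of S100 proteins and the adaptors behind them were followed as a list of 9 genes, all tested. In exercised gastrocnemius at 1.0 mg/kg/day 6 rose and 1 fell, against 23% and 20.4% of all probe sets. The median log2 fold change of the list was 2.5. The co-receptor Cd14 went from 257.5 to 370.8 with vehicle to 5073.1 to 10196.4 with the drug, a log2 fold change of 4.6 (limma adjusted p = 6.57e-06). Ly96, the partner of Tlr4, rose by 2.82, and the adaptor Myd88 rose by 2.68. Tlr4 itself rose by 2.5, from 90.5 to 209.6 up to 528.6 to 1239.8. Ager, the other receptor known for calprotectin, had a log2 fold change of 0.32 and was not called (limma adjusted p = 0.659). Bsg, a broadly expressed surface glycoprotein that binds S100a9, was the member that fell, by 0.60.

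S100a4, a partner of non-muscle myosin in motile cells, had signals of 12690.3, 20892.4, 16308.7 and 20477.8 on the exercised gastrocnemius arrays at 1.0 mg/kg/day and of 2007.9, 1137.4, 1808.5 and 1465.7 with vehicle. The lowest treated array was several times the highest vehicle array, and the treated arrays differed from each other by 1.65-fold only. The rise was 3.45 ± 0.69 (SE), or 10.9-fold (limma adjusted p = 0.000311). S100a6, which binds the ubiquitin ligase partner Cacybp, had signals of 11822.8, 19850.1, 15135.7 and 18322.6 against 3170.7, 3819.8, 3280.4 and 2641.4. It rose by 2.31 ± 0.49 (SE), the smallest of the 6 rises.

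S100a10 was the most even of the 8 genes over the exercised gastrocnemius arrays at 1.0 mg/kg/day, with a ratio of highest to lowest of 1.135. Its 4 treated signals were 19028.5, 19772.9, 18878.2 and 21431.3, against 4105.5, 2974.5, 3451.4 and 2499.8 with vehicle, a rise of 2.62 ± 0.46 (SE; limma adjusted p = 8.87e-05). S100a11 had 13594, 19575.7, 18538.8 and 22521.3 against 3309.9, 2644, 2609.9 and 1805.7, a rise of 2.84 ± 0.48 (SE; limma adjusted p = 6.57e-05). For both genes the lowest treated array was above the highest vehicle array.

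The annexins and the plasminogen system, in which S100a10 and S100a11 take part, moved in the same direction. Of 12 genes tested, 10 rose in exercised gastrocnemius at 1.0 mg/kg/day and none of the 12 fell, with a median log2 fold change of 2.06. Over all probe sets 23% were called higher and 20.4% lower. Plaur, the urokinase receptor, gave the largest difference at 4 (signals 611 to 778 against 7 to 118.3). Annexin A2, which forms a tetramer with S100a10, had signals of 22104.5, 21952.3, 20266.6 and 22692.9 against 2517.9, 2273.1, 2094.2 and 1919 with vehicle, a log2 fold change of 3.3. Annexin A1 rose by 3.14, from 1423.7 to 1671.9 up to 9265.2 to 17137.4. Anxa11, which binds S100a6, was measured at -0.15 and the membrane repair gene Dysf at 0.14, and neither was called.

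Of 15 tested cytoskeletal and intracellular partners, 6 rose and 1 fell in the same comparison, with a median of 0.35, a share near the 43.4% of all probe sets called. The membrane-cytoskeleton linker Ezr rose by 3.32, the intermediate filament Vim by 2.38 and the scaffold Iqgap1, a partner of S100b and S100a4, by 2.35. The remaining 8 of the 15 genes were not called. Of 14 fibroblast and stroma markers, 10 rose and 1 fell, against 23% and 20.4% of all probe sets. The rises were led by the proteoglycan Lum (3.58), Fbln1 (3.57) and Thy1 (2.7). Col1a1, the main fibrillar collagen, gave 0.78 and was not called (limma adjusted p = 0.422). The fibroblast marker mean ranged from 12.29 to 13.02 with the drug and from 10.96 to 11.64 with vehicle. S100a4 and S100a6 are expressed by macrophages as well as by fibroblasts, both marker means did not overlap between the groups, and their parts in the rises were not tested. Of 4 further S100 genes tested, 2 rose, S100a3 (1.61) and S100a13 (0.91), against 23% of all probe sets. Of 10 Schwann cell and myelin markers 3 rose, led by Erbb3 (2.82), Cnp (1.96) and Pmp22 (1.46), of 9 endothelial markers 2 rose, Tie1 (1.51) and Esam (0.95), a share near the 23% of all probe sets called higher, and none of the 4 erythroid markers was called.

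S100a1, the muscle member, moved the other way. Its signals were 514.9, 187.9, 417.6 and 200.5 on the exercised gastrocnemius arrays at 1.0 mg/kg/day and 975.8, 1208.6, 946.5 and 904.2 with vehicle, and the groups did not overlap. The log2 fold change was -1.69 ± 0.37 (SE), 3.24-fold lower (limma adjusted p = 0.000634). Of 12 tested muscle targets and neighbours of S100a1 in calcium handling and glycogen use, 8 fell and none of the 12 rose. Over all probe sets 20.4% were called lower and 23% higher. The calcium release channel Ryr1 fell by 3.07, from 33646.1 to 45212 down to 1858.8 to 11726.1, the voltage sensor Cacna1s fell by 3.04, and Pgm1, a glycogen enzyme that S100a1 regulates, fell by 2.99. The cardiac and slow-muscle forms were not called: Atp2a2 gave 0.37, Casq2 0.58 and Pln -0.13. Of 10 fast fibre markers, 9 fell (median -1.85), against 20.4% of all probe sets, led by Pvalb (-4.33), Mylk2 (-4.31) and Actn3 (-2.42). None of the 10 slow fibre markers was called (median 0.08). Their mean varied widely within groups, from 7.89 to 15.01 with vehicle and from 7.94 to 14.06 with the drug. The fast fibre mean ranged from 15.6 to 15.88 and from 12.8 to 14.28. With that spread, the lack of calls does not show that slow fibre markers were unchanged.

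S100b showed no difference that passed the test. Its signals at 1.0 mg/kg/day in exercised gastrocnemius, 241.4, 354.4, 484.8 and 325.2, overlapped those of vehicle, 257.6, 327.9, 377.7 and 309.4. The log2 fold change was 0.11 ± 0.86 (SE; limma adjusted p = 0.932). The standard error is shared with groups in which S100b varied widely. With the adipocyte marker mean as a covariate, an alternative chosen after seeing the data, the value was 0.42 ± 0.27 (SE, limma adjusted p = 0.213). S100b itself correlated at 0.97 with this covariate over the 45 arrays.

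In unexercised gastrocnemius the same 7 S100 genes were called at 1.0 mg/kg/day, where 9.5% of all probe sets were, 5.7% higher and 3.81% lower. S100a9 was 4551.7, 6542.6 and 164.4 on the 3 treated arrays and 61.7, 83.4, 153.2 and 82.1 with vehicle. Replicates 1 and 2 were far above every vehicle array, and replicate 3 was just above the highest of them. S100a8 showed the same split, with 2081.8, 3074.6 and 57 against 19.4, 50.6, 137 and 84.1. S100a4 was 16484.5, 18750.7 and 2886 against 874.7, 1399.9, 981.2 and 5745.1, so that replicate 3 lay inside the vehicle range. S100a10 was 22388.4, 22511.3 and 5090.9 against 2395.5, 2215.5, 2486.7 and 6435, which is the same pattern.

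The log2 fold changes in unexercised gastrocnemius were 3.38 ± 1.05 (SE) for S100a8, 4.09 ± 0.96 for S100a9, 2.56 ± 0.75 for S100a4, 1.86 ± 0.53 for S100a6, 2.17 ± 0.49 for S100a10 and 2.06 ± 0.52 for S100a11. S100a1 fell by 1.52 ± 0.4, with signals of 358.7, 306.8 and 971.6 against 1303.2, 2609.8, 845.2 and 1298.8. The limma adjusted p ran from 0.014 for S100a10 to 0.0422 for S100a8. The arrays did not overlap for 2 of the 8 genes, S100a9 and S100a6, against 15% of all probe sets. Macrophage markers moved along, with 14 of 15 tested called higher, while neither of the 2 tested neutrophil markers was called. Among the partners, 4 of 9 receptor genes and 9 of 12 annexin genes rose, annexin A2 with signals of 24085.8, 23769.3 and 4275.1, and 3 of 12 muscle targets of S100a1 fell. Over all probe sets 5.7% were called higher and 3.81% lower.

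These calls rest on replicates 1 and 2. Without replicate 1 or without replicate 2, none of the 8 genes was called, and 5 or 2 probe sets were called on the whole array. Without replicate 3, 7 genes were called and the log2 fold changes were larger, 5.12 for S100a8, 5.74 for S100a9, 3.43 for S100a4 and -2.03 for S100a1. Leaving out vehicle replicate 1, 2 or 3 left 3 genes called each time, and a fit of only these 2 groups called none of the 8. S100a8 was the least stable: its call was also lost with an offset of 1 (limma adjusted p = 0.062), without the filter (0.0535) and without the variance trend (0.051), and it was kept in 1 of 7 fits that left out 1 array. In exercised gastrocnemius, 7 genes were called under every alternative and without any single array.

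Against 0.5 mg/kg/day instead of vehicle, 7 of the 8 genes were called in exercised gastrocnemius (39.7% of all probe sets) and 6 in unexercised gastrocnemius (9.33%), where S100a1 had a log2 fold change of -1.03 and missed the threshold (limma adjusted p = 0.0921). The groups at 1.0 mg/kg/day are the same in both comparisons, so they are not independent of those against vehicle. In exercised muscle at 0.5 mg/kg/day S100a4 was 1121.9, 1104.9 and 892.5, against 1137.4 to 2007.9 with vehicle, a log2 fold change of -0.6 that was not called. At 1.0 mg/kg/day it was 12690.3 or more.

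At 0.1 and 0.5 mg/kg/day no S100 gene differed from vehicle by limma's adjusted p, in exercised or unexercised gastrocnemius, and 0% of all probe sets were called in these 4 comparisons. At an unadjusted p under 0.05 none of the 8 genes passed either, against 2.73% to 4.4% of all probe sets. The values of S100a9 at 0.1 mg/kg/day overlapped vehicle with medians above it: 246.4, 125.7, 371.2 and 429 without exercise (log2 fold change 1.44 ± 0.89) and 172.2, 141.3, 139.4 and 56.6 with exercise (1.47 ± 0.89), differences of less than 2 SE. These standard errors are shared with the 1.0 mg/kg/day groups, in which S100a9 varied widely (log2 SD 2.87 without exercise). In fits of only the compared groups, S100a9 at 0.1 mg/kg/day was 1.44 ± 0.42 (SE) without and 1.47 ± 0.63 with exercise. With exercise, S100a11 was 0.68 ± 0.18 and S100b 1.52 ± 0.4, while S100a8 was 0 ± 0.72 and S100a1 -0.2 ± 0.15. No S100 gene was called in these fits either (limma adjusted p of 0.449 or more). S100a9 at 0.5 mg/kg/day was 27, 35.5, 121.2 and 208 without exercise, overlapping vehicle. S100a9 was thus not ordered by dose below 1.0 mg/kg/day.

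The design also compares exercised with unexercised rats. In vehicle gastrocnemius, exercise changed none of the 8 genes (0% of all probe sets called); the log2 differences of exercised from unexercised ranged from -1.11 for S100a9 to 0.08 for S100a10. In vehicle soleus the count was also 0 (0% of all probe sets), with values from -0.35 for S100a9 to 0.4 for S100b. The interaction of exercise with the 1.0 mg/kg/day dose in gastrocnemius called none of the 8 and 0% of all probe sets. At an unadjusted limma p under 0.05 none of the 8 genes passed in these 3 comparisons either, against 3.33%, 2.97% and 6.33% of all probe sets. Its estimates were 0.88 ± 1.43 (SE) for S100a8, 1.25 ± 1.31 for S100a9, 0.89 ± 1.02 for S100a4 and 0.78 ± 0.71 for S100a11. Larger changes with exercise were therefore not shown, and intervals of this width do not show that they were equal.

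**Figure D2:**
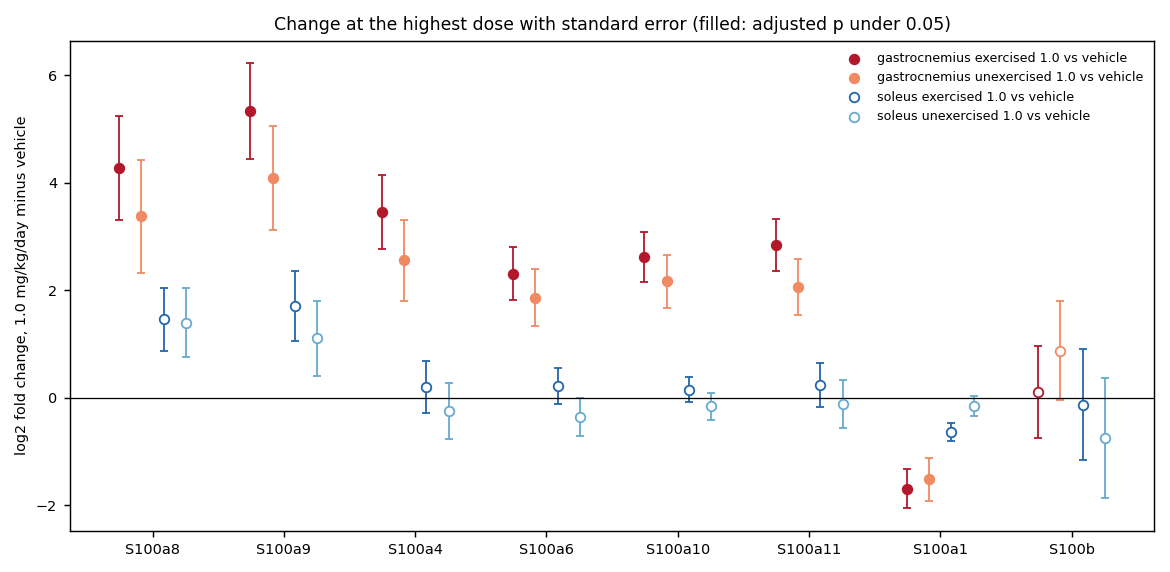
Log2 fold change of each S100 gene at 1.0 mg/kg/day against vehicle (points) with its standard error (bars) in the 4 combinations of muscle and exercise; filled points have a limma adjusted p under 0.05. In gastrocnemius 7 genes are called with and without exercise, and in soleus no point is filled, although S100a8 and S100a9 lie above 0 in both soleus comparisons.

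Soleus was sampled beside gastrocnemius, so that the response can be compared between the muscles. At 1.0 mg/kg/day no S100 gene was called in soleus, with or without exercise, and 0% of all probe sets were called in either comparison. Without multiple-test adjustment 3 of the 8 genes had a limma p under 0.05 in exercised soleus, where 5.32% of all probe sets did, and 1 in unexercised soleus (2.73%).

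These were the calprotectin genes and S100a1. S100a9 was 697.7, 404.4, 365.6 and 272.8 in exercised soleus at 1.0 mg/kg/day and 231.7, 117.3, 104.2 and 63.6 with vehicle. All 4 treated arrays lay above the vehicle arrays. The log2 fold change was 1.71 ± 0.65 (SE; limma adjusted p = 0.908). S100a8 was 265.2, 315.8, 237.1 and 69.2 against 96.1, 14.9, 114.5 and 73.8, with 1 treated array inside the vehicle range and a log2 fold change of 1.46 ± 0.59. S100a1 was 998.6, 1463.8, 1477.6 and 1079.2 against 2155, 2216.6, 1827.7 and 1546.5, all treated arrays below all vehicle arrays (-0.63 ± 0.17, limma adjusted p = 0.747). Groups without overlap were thus seen for 2 of the 8 genes, against 3.3% of all probe sets.

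In unexercised soleus, 2 of the 3 treated arrays were high in calprotectin genes: S100a9 was 751.7, 962.7 and 48 against 115.9, 146, 177.9 and 178.2, and S100a8 was 302.2, 358 and 60.9 against 66.7, 33.3, 85.6 and 89.3. The log2 fold changes, 1.11 ± 0.7 (SE) for S100a9 and 1.4 ± 0.64 for S100a8, did not pass (limma adjusted p = 1 for both). No gene had groups without overlap here, against 3.74% of all probe sets. S100a4, S100a6, S100a10 and S100a11 had log2 fold changes between -0.36 and 0.24 in the 2 soleus comparisons; without the 3 arrays highest in adipocyte markers these were 0.05 to 0.32 without and -0.15 to 0 with exercise, so their signs rest on those arrays. The macrophage marker mean in exercised soleus ranged from 8.81 to 10.38 at 1.0 mg/kg/day and from 8 to 9.18 with vehicle, and none of the 15 tested macrophage markers was called.

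The difference between muscles was tested itself. In exercised rats, 5 S100 genes changed differently in soleus than in gastrocnemius at 1.0 mg/kg/day (25.3% of all probe sets did): the log2 fold change in soleus minus that in gastrocnemius was -3.63 ± 1.21 (SE) for S100a9, -3.25 ± 0.92 for S100a4, -2.1 ± 0.65 for S100a6, -2.47 ± 0.58 for S100a10 and -2.6 ± 0.68 for S100a11. The S100a9 call was lost in 4 of 16 fits that left out 1 array (limma adjusted p up to 0.0808): replicate 2 or 4 of vehicle gastrocnemius, replicate 2 of gastrocnemius at 1.0 mg/kg/day, or replicate 1 of vehicle soleus. The partner lists differed between the muscles as well, 5 of 9 receptor genes, 9 of 12 annexin genes and all 15 tested macrophage markers being lower and 8 of 12 muscle targets of S100a1 higher in this difference. S100a8 at -2.81 ± 1.26 and S100a1 at 1.07 ± 0.45 were not called (limma adjusted p = 0.0981 and 0.0798). In unexercised rats none of the 8 was called, against 0.0092% of all probe sets, and 6 had an unadjusted limma p under 0.05, against 18.1%; the estimates ran from -2.97 for S100a9 to 1.37 for S100a1. Without replicate 3 of unexercised gastrocnemius at 1.0 mg/kg/day, 7 genes were called there.

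Vehicle muscles also differed from each other. S100a10 was higher in soleus by 1.37 ± 0.41 (SE) without exercise (limma adjusted p = 0.0337; 7.02% of all probe sets called) and by 1.22 ± 0.41 with exercise (adjusted p = 0.0414; 13.2% called). Its exercised vehicle signals were 6870.8, 6137.4, 8736.9 and 8427.5 in soleus and 4105.5, 2974.5, 3451.4 and 2499.8 in gastrocnemius, without overlap. S100a1 was higher in soleus by 0.93 ± 0.32 with exercise (adjusted p = 0.0486), with signals of 2155, 2216.6, 1827.7 and 1546.5 against 975.8, 1208.6, 946.5 and 904.2. Without exercise its difference was 0.11 and was not called. These 3 calls were close to the threshold: each was kept in 1 of 8 fits that left out 1 array, with adjusted p up to 0.124 for S100a10 without exercise, and 0.12 for S100a10 and 0.115 for S100a1 with exercise. Adipocyte markers differed along with them: their mean ranged from 9.11 to 11.12 in exercised vehicle soleus and from 8.13 to 8.72 in gastrocnemius, and 3 of the 8 tested were called higher in soleus and 1 lower. With the adipocyte marker mean as a covariate, S100a10 was no longer called (0.97 ± 0.38 without and 0.66 ± 0.39 with exercise), whereas S100a1 was (1.16 ± 0.34, limma adjusted p = 0.022). The covariate did not overlap between the exercised vehicle muscles, so muscle and adipocyte markers cannot be told apart there.

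S100b varied widely within groups. In vehicle soleus without exercise it was 661.1, 1077.1, 11791.8 and 828.7, and with exercise 1144.2, 793.6, 4418.9 and 5368. In exercised soleus at 1.0 mg/kg/day it was 15158.7, 711, 1165.8 and 1192.4. In unexercised gastrocnemius at 0.1 mg/kg/day it was 1072.2, 478.7, 19696.6 and 202.8, the highest and the lowest signal of all 45 arrays in 1 group. The high arrays belong to different doses and to both muscles. In exercised gastrocnemius, by contrast, the 4 vehicle arrays lay within 1.47-fold. Exercised vehicle soleus was above it on all 4 arrays, a log2 difference of 2.73 ± 0.98 (SE) that missed the threshold (limma adjusted p = 0.057). It passed without the 3 arrays highest in adipocyte markers, none of which is in these groups (2.73 ± 0.63, limma adjusted p = 0.00203). With the adipocyte marker mean as a covariate it was 0.11 ± 0.28 (limma adjusted p = 0.866). S100b correlated at 0.97 with this mean over the 45 arrays, and the mean did not overlap between these groups. The covariate therefore cannot separate a difference between muscles from one in adipocyte markers.

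The arrays highest in S100b were high in markers of several cell types, fat among them. The 3 arrays with the highest S100b were the 3 with the highest adipocyte marker mean; on them the adipokine Adipoq had signals of 24609.4, 15620.7 and 15350.1, against 7012.9 at most elsewhere. The lipid droplet gene Plin1 had 14578.6, 12089.9 and 10887.7, against 3907.1 at most. The myelin gene Mbp was high on the same arrays, at 19243.4, 15191.8 and 13186.8, against 11007.3 at most elsewhere, and so was Prx, at 4563.1, 4167.7 and 2954, against 2277.5. These arrays also had the 3 highest endothelial marker means (12.1, 11.57 and 11.07) and ranked 1, 2 and 4 of 45 for a low ratio of 5′ to 3′ actin probe sets (0.116, 0.245 and 0.255). Over the 45 arrays the correlation of S100b with the adipocyte marker mean was 0.97 and with the Schwann cell and myelin marker mean 0.81. The same correlations of deviations from the group means, over the 38 arrays outside the 1.0 mg/kg/day gastrocnemius groups, were 0.97 and 0.9. The genes closest to S100b over all 45 arrays were Nnat (r = 0.96), Adipoq (0.953) and Pck1 (0.948), of which Adipoq and Pck1 are highly expressed in adipocytes. S100b was chosen as a nerve gene. Fat and myelin genes were high on the same arrays, and their parts in S100b were not tested.

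Replicate 3 of unexercised gastrocnemius at 1.0 mg/kg/day belongs to this description too. It had the highest S100b of its group, 3219.3 against 295.6 and 654.5, while its S100a9 was 164.4 against 4551.7 and 6542.6. Its labels place it with the other arrays of the group.

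**Figure D3:**
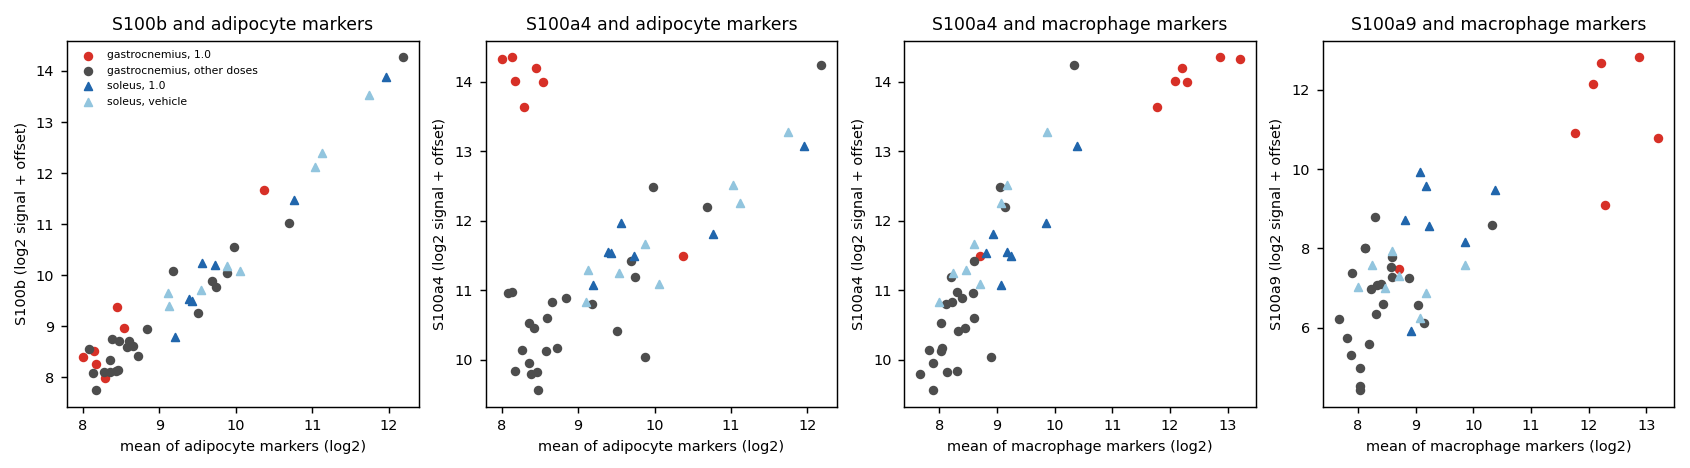
Log2 values of S100b and S100a4 against the mean of the adipocyte markers, and of S100a4 and S100a9 against the mean of the macrophage markers, 1 point per array (45 arrays; red circles are gastrocnemius at 1.0 mg/kg/day, grey circles gastrocnemius at other doses, dark blue triangles soleus at 1.0, light blue triangles vehicle soleus). S100b follows the adipocyte mean on all arrays (r = 0.97), and S100a4 follows the macrophage mean on all arrays (r = 0.91). Outside the high-dose gastrocnemius groups S100a4 rises with both means (r = 0.84 with adipocyte and 0.86 with macrophage markers, in deviations on 38 arrays). S100a9 is above all other arrays on 5 of the 7 high-dose gastrocnemius arrays.

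Outside the high-dose gastrocnemius groups, S100a4, S100a6, S100a10 and S100a11 went with S100b and not with calprotectin. On the 38 arrays outside the 1.0 mg/kg/day gastrocnemius groups, the deviations from the group means of these 4 genes correlated at 0.91 to 0.94 with each other, at 0.84 to 0.91 with S100b and at 0 to 0.16 with S100a8 and S100a9. S100a1 ran against them, at -0.62 to -0.48 with these 4 genes and S100b. S100a8 and S100a9 correlated with each other at 0.62. The array highest in S100b, replicate 3 of unexercised gastrocnemius at 0.1 mg/kg/day, gave 19369.3 for S100a4, 30454.2 for S100a6, 17402.8 for S100a10 and 20251.4 for S100a11, of which the S100a6 signal was above every high-dose array, while its S100a8 was 186.7 and its S100a9 371.2. Its S100a1, 559.6, was the lowest of its group. These correlations share array-wide properties such as tissue composition and RNA quality: this array also had the lowest ratio of 5′ to 3′ actin probe sets, 0.116. The 3 arrays highest in adipocyte markers are among the 38, and how far the correlations rest on them was not tested. The correlations are descriptions over arrays, without a test.

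Without the 3 arrays highest in the adipocyte mean, an alternative chosen after seeing the data, 7 genes were again called in exercised and 7 in unexercised gastrocnemius at 1.0 mg/kg/day. On the exercised high-dose gastrocnemius arrays the adipocyte mean was between 8 and 8.54, against 8.13 to 8.72 with vehicle, and S100a4 was 12690.3 or more. On the unexercised ones it was 8.17 and 8.45 with S100a4 at 16484.5 and 18750.7, and 10.37 on replicate 3 with S100a4 at 2886. Adipoq lay between 59 and 146.5 with exercise at the high dose, against 123.5 to 215.4 with vehicle. In that comparison 2 of the 8 tested adipocyte markers, Plin4 and Lipe, fell, a share near the 20.4% of all probe sets called lower.

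**Figure D4:**
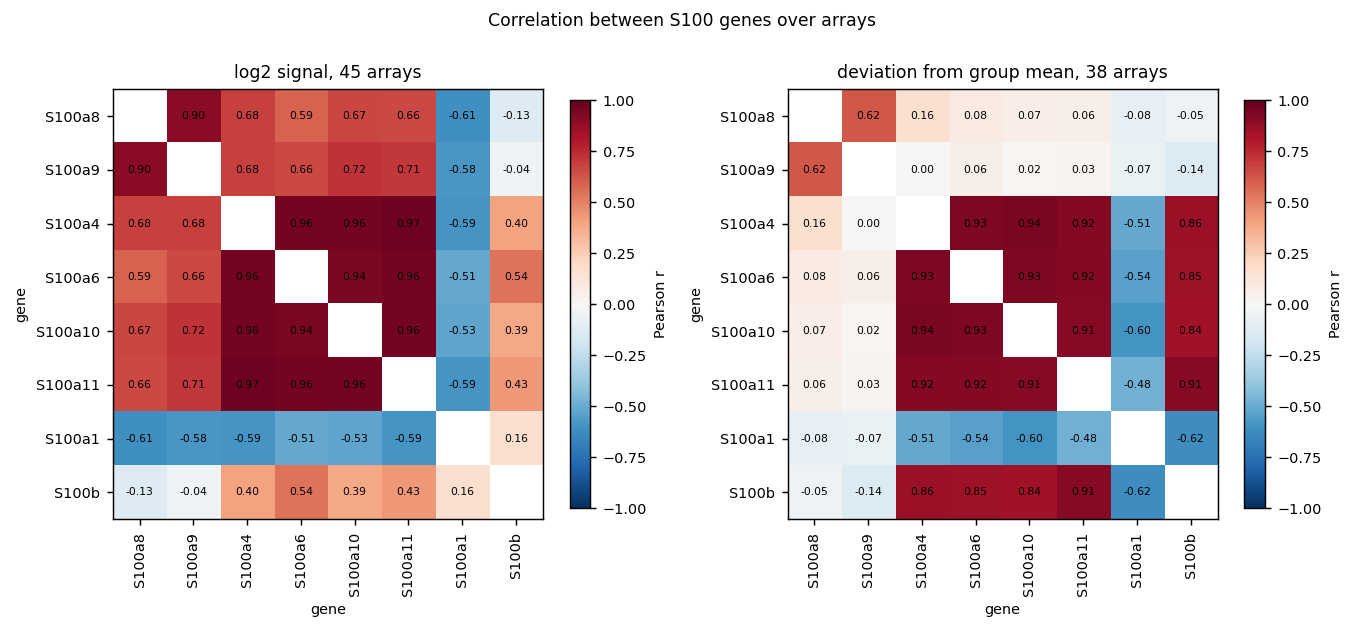
Pearson correlation between the 8 S100 genes over arrays, left for log2 signals of all 45 arrays and right for deviations from the group means on the 38 arrays outside the 1.0 mg/kg/day gastrocnemius groups. S100a4, S100a6, S100a10 and S100a11 form a block at 0.91 or above in both panels, S100b joins it only in the right panel (0.84 to 0.91), and S100a8 with S100a9 stands with it only in the left panel (0.59 to 0.72). Both panels include the arrays highest in adipocyte markers.

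The nearest genes over the array were named by correlation with 1 probe set per gene. For S100a10 the closest gene was annexin A2, its binding partner (r = 0.973 over 45 arrays and 0.947 for the deviations on 38 arrays). For S100a11 it was annexin A1, its partner (0.983 and 0.968). S100a8 and S100a9 were each other's closest gene over the 45 arrays (0.898), but not in the deviations, where S100a8 was closest to Cwc25 (0.758) and S100a9 to Usp8 (0.64), with 0.619 between them. S100a4 was closest to S100a11 (0.97), then Rpl3 and Capg, and in the deviations to Vim (0.942). S100a6 was closest to Ywhaq (0.962), and in the deviations to Cyb5r3 (0.97). S100a1 was closest to Sirt3, a mitochondrial deacetylase (0.911), and in the deviations to Rbm20, a splicing factor of striated muscle (0.823).

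Ordered by their mean log2 signal over the 12 groups, S100a8, S100a9, S100a4, S100a6, S100a10 and S100a11 each had exercised gastrocnemius at 1.0 mg/kg/day first, unexercised gastrocnemius at 1.0 second and exercised soleus at 1.0 at rank 3. Neighbouring groups among ranks 1 to 4 did not differ beyond their spread for any of these 6 genes. For S100a4 the first and second means were 14.08 ± 0.34 (SD, n = 4) and 13.24 ± 1.5 (SD, n = 3). For S100a8 and S100a9, unexercised soleus at 1.0 had rank 4. The means of the 4 groups given 1.0 mg/kg/day were thus the 4 highest of the 12. Ranks 3 and 4 did not differ beyond their spread (S100a9: 8.72 ± 0.55 and 8.47 ± 2.22). Nor did rank 4 and rank 5, unexercised gastrocnemius at 0.1, with gaps of 0.75 for S100a8 and 0.35 for S100a9. The order therefore does not separate the high-dose soleus groups from lower doses. S100a1 was ordered in reverse, with the 2 high-dose gastrocnemius groups last (8.93 ± 0.88 and 8.29 ± 0.71) and exercised vehicle soleus first (10.91 ± 0.24), a gap of 0.34 to unexercised vehicle soleus. S100b had the 3 soleus groups exercised vehicle (11.08 ± 1.37), exercised 1.0 (10.96 ± 1.98) and unexercised vehicle (10.68 ± 1.92) first, with gaps smaller than their spread.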

How the data were processed

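Total RNA of rat gastrocnemius and soleus was hybridised on 45 Affymetrix arrays. The authors deposited MAS5 signal intensity values per probe set on a linear scale, per the submitters' processing notes; the trimmed mean (2% at each end) of every array was 600.2 to 600.3. From these values log2(signal + 12.4) was computed, the offset being the 10th percentile of all signals. Probe sets whose mean lay under the 30th percentile (6.03) and 57 controls were left out, and 21729 of 31042 were tested in limma 3.58.1 (R 4.3.3) with a variance trend and Benjamini-Hochberg adjustment: 30 gastrocnemius arrays in 1 fit, 15 soleus arrays in another, all 45 between muscles, 17 comparisons. The fit was tested on simulated data. Symbols came from the platform annotation, where 20826 probe sets had 1 symbol, 436 several and 9780 none; of 169 partner and marker symbols in 14 lists, 143 were on the array and 130 were tested. Each list was summarised by its counts called each way, naming up to 3 called members of largest fold in exercised gastrocnemius at 1.0 mg/kg/day and defining markers, and other list members were named after their values were seen; for each S100 gene the genes of highest correlation were named. The 8 genes and all lists were chosen with earlier results of these data known. Replicate numbers were not used to pair arrays in the main fits. Between groups of the same muscle, the median correlation of deviations was 0.012 for same and -0.006 for other numbers. This check held no pair of gastrocnemius with soleus, so it cannot show whether both muscles of an animal share a number. Alternatives covered the offset, filter, normalization, variance model, samples in the fit, replicate block, array quality, fat markers (both fat settings were chosen after seeing the data) and each array left out. Arrays hold no read depth; their number limits the precision. Scan dates were not used here.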

Additional observations from a re-analysis of the deposited data

Results flagged for a closer look

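Dixon's test at the 95% level was run on the signals of each S100 gene in each group of 4 arrays, 72 tests in all, of which chance flags about 1 in 20, and 9 were flagged. Of these, 5 were on replicate 3 of unexercised vehicle soleus: S100a4 at 9941.1 against 2173 to 2503.2 on the other arrays, S100a6 at 17325.9 against 5127.9 to 6295, S100a10 at 12848.8 against 6404.1 to 7134, S100b at 11791.8 against 661.1 to 1077.1, and S100a1 on the low side, at 1178.5 against 1588.5 to 1661.3. Replicate 1 of exercised soleus at 1.0 mg/kg/day stood apart for S100a6 (15388.9 against 6491.7 to 7339.2) and S100b (15158.7 against 711 to 1192.4). Replicate 4 of unexercised vehicle gastrocnemius stood apart for S100a6 (6966.8 against 2668.4 to 3054.7) and S100a10 (6435 against 2215.5 to 2486.7). These arrays ranked 3, 2 and 10 of 45 in the adipocyte marker mean, and its part in the values was not tested. Neither calprotectin gene was flagged in a group of 4. The groups of 3 were not tested, and there single arrays did stand apart for these genes. S100a8 was 57 against 2081.8 and 3074.6 in unexercised gastrocnemius at 1.0 mg/kg/day. S100a9 was 48 against 751.7 and 962.7 in unexercised soleus at 1.0.

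The response to 1.0 mg/kg/day in exercised rats differed between the muscles, by limma's test of the difference itself, for S100a9 (-3.63, soleus minus gastrocnemius; lost in 4 of 16 fits without 1 array), S100a4 (-3.25), S100a6 (-2.1), S100a10 (-2.47) and S100a11 (-2.6).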

How the results depend on the processing

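All 7 calls in exercised gastrocnemius at 1.0 mg/kg/day kept their direction and threshold under 13 alternatives and with each array left out, and no called value changed sign. Values that were not called did change sign: S100b in exercised gastrocnemius at 1.0 went from 0.11 to -0.17 with quantile normalization. In unexercised gastrocnemius at 1.0, the 7 calls against vehicle and the 6 against 0.5 mg/kg/day became 0 when only the compared groups were fitted, and with 1 array left out ranged from 0 to 7 in both. S100a8 alone also lost its call against vehicle with an offset of 1, no filter or no variance trend, and against 0.5 mg/kg/day with an offset of 1 (limma adjusted p = 0.0515). Between vehicle muscles without exercise, the single call (S100a10) became 0 with quantile normalization or the adipocyte covariate and 2 without the 3 arrays of lowest actin ratio, and ranged from 0 to 1 with an array left out. With exercise, the 2 calls became 0 without the low-signal filter or with quantile normalization, 1 with an offset of 1, median centring, no variance trend or the adipocyte covariate, 5 without the 3 arrays of lowest actin ratio or of highest adipocyte mean, and 6 in a fit of only these groups, and ranged from 0 to 2 with an array left out. The interaction of muscle with dose in unexercised rats, with no call, gave 4 without the lowest actin arrays and 0 to 7 with an array left out. The causes were not tested. With the replicate number as a block, 1 gene was called between exercised vehicle muscles, S100b (limma adjusted p = 0.0435), while S100a10 (0.0525) and S100a1 (0.0558) were not, 6 genes were called in unexercised gastrocnemius at 1.0 against vehicle and 4 against 0.5 mg/kg/day, and the counts of the other 14 comparisons did not change. The labels do not say whether soleus and gastrocnemius with the same number came from 1 animal. Signals of S100a8 and S100a9 in vehicle muscle lie near the filter, so their folds depend on the offset: S100a9 in exercised gastrocnemius ranged from 4.23 to 5.93 over the alternatives.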
